A study of Mus musculus with 6 samples.

Results

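The laminin chain genes Lama1, Lama2, Lama3, Lama4, Lama5, Lamb2 and Lamc1, the nidogen genes Nid1 and Nid2, and the perlecan gene Hspg2 were followed in testis RNA from 3 Prss54KO mice and 3 wild-type (WT) mice. Members were taken by gene name, as every non-control probe of the array that carries 1 of these 10 names, which gave 10 of the 27376 gene names and 16 of the 41174 probes on the array. All 6 mice were males of a mixed 129Sv and C57BL/6 background, 6 to 8 weeks old, and each testis RNA was labelled with Cy3 and hybridised to its own 1-colour Agilent array. Prss54KO mice are labelled as knockouts of Prss54, a gene of the trypsin-like serine protease family. The allele, the deleted stretch of the gene and the litters are not given in the sources used here, and p-values measure only the spread between these samples.

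Laminins are cross-shaped heterotrimers of an alpha, a beta and a gamma chain that polymerise into the sheet on which a basement membrane is built. The alpha chain carries the globular end that binds integrins and dystroglycan on the cell surface, and nidogens and the heparan sulphate proteoglycan perlecan connect the laminin sheet to the type IV collagen network. In the testis such a membrane surrounds each seminiferous tubule, where Sertoli cells and peritubular myoid cells build it, and others line the blood vessels and Leydig cells of the interstitium.

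None of the 10 genes passed the threshold in Prss54KO testes against WT testes, and 0 of all 28913 tested probes did. Each had at least 1 probe well above background on all 6 arrays, and the widest interval of any detected probe belongs to a dim Lama2 probe with 1 deviating WT array. The lowest p-values were those of Lamc1, the gamma chain gene, and Nid1, both with lower mean signals in Prss54KO.

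Signals are given as scaled signal, the processed signal of the probe in percent of the 75th percentile of its own array. Tests were made on its log2 with limma over 28913 probes, those that passed the scanner's background test on 3 or more arrays, and differences are Prss54KO minus WT. Where 3 values are given for a genotype, they stand for replicates 1, 2 and 3 in that order. On single arrays 66.2% to 74.8% of gene spots passed that test, and Pearson's r between any pair of arrays was 0.994 or higher. Slide 1 held Prss54KO replicate 3 alone, slide 2 held Prss54KO replicates 1 and 2 with WT replicate 3, and slide 3 held WT replicates 1 and 2. The probe of Prss54 ranged from 440.5% to 569% in Prss54KO testes, against 1397% to 1527% in WT testes, a log2 difference of -1.56 (SE 0.10, limma's adjusted p 0.108). Whether that probe lies within the deleted stretch is not given. On the array 7 of 7 germ cell markers and 12 of 12 Sertoli cell markers were above background, but so were 5 of 7 epididymis markers. Testis identity showed in the levels. Summed scaled signals of the germ cell markers were 86060% or higher in every testis, and those of the epididymis markers 46.8% or lower.

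Of the 16 probes, 13 were kept, all of them well above background on all 6 arrays, and each of the 10 genes had at least 1. The other 3, a Lama2 probe and a pair of Lama4 probes, were not well above background on any array and give no fold. Dim Lama2 A_52_P459341 read 0.622% to 0.745% in Prss54KO and 0.464% to 0.780% in WT. Dim Lama4 A_51_P212427 read 0.70% to 1.95% in Prss54KO and 1.56% to 1.79% in WT, and dim Lama4 A_52_P78714 read 0.658% to 0.785% in Prss54KO and 0.504% to 0.529% in WT. These signals did not pass the scanner's background test on any array.

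Probe positions follow the mm9 build named in the files, and no mm9 annotation was used here to name the exon or untranslated region under them. The sequences below are of 6 probes that carry the results: the pair of Lama4 probes that share bases, the pair of Lama2 probes that gave different values, and the probes of Lamc1 and Nid1, whose p-values were lowest. Capitals mark the 29 bases that both Lama4 probes hold.
Lama4 A_52_P7554, chr10:38825032-38825822: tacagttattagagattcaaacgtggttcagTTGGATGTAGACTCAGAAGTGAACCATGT
Lama4 A_51_P212420, chr10:38825794-38825853: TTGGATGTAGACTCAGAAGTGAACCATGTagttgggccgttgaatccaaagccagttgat
Lama2 A_52_P652859, chr10:26710714-26712724: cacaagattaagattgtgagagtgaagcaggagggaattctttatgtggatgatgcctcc
Lama2 A_51_P191865, chr10:26704229-26704288: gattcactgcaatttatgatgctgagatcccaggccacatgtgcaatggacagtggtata
Lamc1 A_51_P199354, chr1:155066154-155066213: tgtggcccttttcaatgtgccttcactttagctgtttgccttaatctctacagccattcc
Nid1 A_51_P339943, chr13:13604417-13604476: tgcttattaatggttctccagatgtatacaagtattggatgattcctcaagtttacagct
Each probe is 60 bases long, and the files list the Lama2 and Lamc1 probes on the minus strand and the Lama4 and Nid1 probes on the plus strand. The Lama1 probe spans chr17:68167016-68167978 on the plus strand, Lamb2 lies at chr9:108392189-108392248, Nid2 at chr14:20630490-20630549 and Hspg2 at chr4:137126392-137126451, all on the plus strand. For the Lama5 probe, on the minus strand, the files list only 15 bases, chr2:179911062-179911076. The first Lama4 probe spans 791 bases of genome and the first Lama2 probe 2011 bases. Among the kept probes of 1 gene, these Lama4 probes share sequence, whereas the kept Lama2 probes share no run longer than 7 bases and the kept Lama3 probes none longer than 6.

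Lamc1 encodes the gamma chain found in most laminins, and its nidogen-binding module ties the laminin sheet to nidogen. Lamc1 read 91.7%, 88.8% and 98.6% in Prss54KO testes, against 104.5%, 104.2% and 99.2% in WT testes. All 3 Prss54KO testes lay below all 3 WT testes, though Prss54KO replicate 3 and WT replicate 3 nearly met. It was the only kept member probe whose genotypes did not overlap, 1 of 13 or 7.69%, where 7.81% of all kept probes did not overlap in either direction, 3.6% with Prss54KO lower and 4.21% with Prss54KO higher. The log2 difference of Lamc1 was -0.14 (SE 0.06, 95% interval -0.29 to 0.01), with an unadjusted p of 0.0587 and an adjusted p of 0.9999 by limma. An exact permutation test, two-sided, gave p 0.1, which is the lowest value possible with 3 testes per genotype. On slide 2, Prss54KO replicates 1 and 2 lay below WT replicate 3 by a mean log2 difference of -0.14.

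Lamb2, the beta chain gene best known from the glomerulus and the neuromuscular junction, had scaled signals of 72.1%, 74.6% and 85.9% in Prss54KO testes, against 80.9%, 79.0% and 75.8% in WT testes. Prss54KO replicates held both the lowest and the highest value, and the genotypes overlapped. Its log2 difference was -0.02 (SE 0.08, 95% interval -0.22 to 0.17).

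The alpha chains differ in where they are laid down, and their probes did not share a direction. Lama1, the alpha chain gene of the early embryo's membranes and of several adult epithelia, had scaled signals of 11.8%, 14.3% and 14.1% in Prss54KO testes. In WT testes, Lama1 had 12.7%, 12.1% and 11.2%. Prss54KO replicates 2 and 3 lay above every WT testis and Prss54KO replicate 1 lay within the WT range. The log2 difference of Lama1 was 0.16 (SE 0.10, 95% interval -0.08 to 0.39), and limma's unadjusted p was 0.157.

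Lama2 encodes the alpha chain of muscle and peripheral nerve laminin, whose loss causes muscular dystrophy. Its brighter probe is spotted 10 times on each array. That probe read 45.8%, 47.7% and 52.0% in Prss54KO testes, against 53.2%, 48.8% and 51.3% in WT testes. The genotypes overlapped, with a log2 difference of -0.08 (SE 0.07, 95% interval -0.24 to 0.09). Spots of this probe on 1 array varied with a coefficient of variation of 4.39% to 6.34% in Prss54KO and 2.14% to 4.34% in WT. Between mice the coefficient of the scaled signal, averaged over the spots, was 6.51% in Prss54KO and 4.28% in WT. The former describes single unscaled spots, so these coefficients are not directly comparable. In WT replicate 2, 2 of the 10 spots were marked as outliers and left out.

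**Figure D1:**
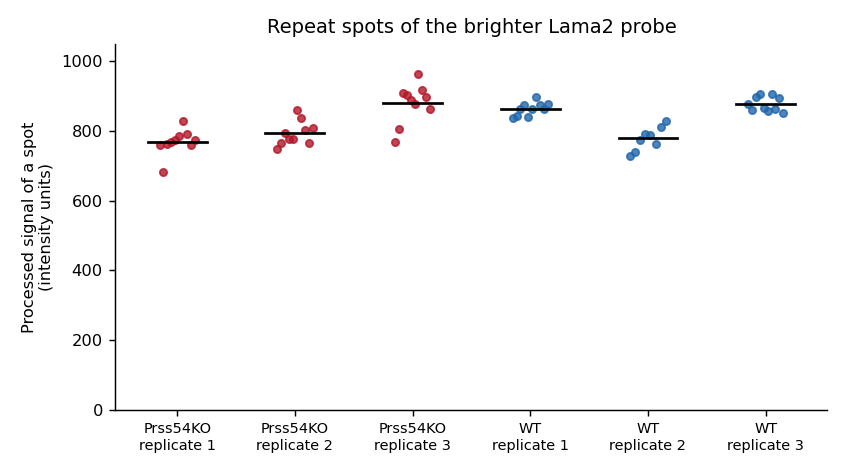
Processed signal in intensity units of each repeat spot of the brighter Lama2 probe, by testis, with Prss54KO in red, WT in blue and the mean of the spots as a bar. Means run from 769 to 880 in Prss54KO and from 779 to 878 in WT, and the spots of each array spread around them.

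The dimmer Lama2 probe had scaled signals of 10.3%, 8.47% and 10.6% in Prss54KO testes, against 9.91%, 16.8% and 9.78% in WT testes. WT replicate 2 stood above the other 5 testes, which lay close together. The log2 difference was -0.27 (SE 0.23, 95% interval -0.83 to 0.28), and without WT replicate 2 it was -0.01. The brighter Lama2 probe did not show WT replicate 2 high. The log2 of the dimmer over the brighter probe averaged -2.31 ± 0.17 in Prss54KO and -2.12 ± 0.50 in WT (SD, n = 3 each; exact permutation p 0.8, two-sided).

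Lama3 encodes the alpha chain of epithelial laminins, and in the rat testis it has been described at the junction between Sertoli cells and spermatids. Its brighter probe had scaled signals of 6.43%, 7.71% and 6.92% in Prss54KO testes, against 6.43%, 6.58% and 6.11% in WT testes. Prss54KO replicates 2 and 3 lay above all WT testes and Prss54KO replicate 1 within their range, with a log2 difference of 0.14 (SE 0.08, 95% interval -0.06 to 0.33). The dimmer Lama3 probe had 3.44%, 3.35% and 3.77% in Prss54KO testes, against 2.60%, 4.02% and 3.46% in WT testes. Here WT testes held both the lowest and the highest value, and the log2 difference of 0.09 (SE 0.16) was -0.08 without WT replicate 1.

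Lama4 encodes the alpha chain of vascular and smooth muscle basement membranes. Its brighter probe, A_51_P212420, had scaled signals of 20.5%, 18.6% and 21.4% in Prss54KO testes, against 21.2%, 20.3% and 19.9% in WT testes. The genotypes overlapped and the log2 difference was -0.02 (SE 0.07, 95% interval -0.19 to 0.15). The dimmer probe A_52_P7554, which ends in the 29 capitals that begin the brighter one, had 9.29%, 8.16% and 9.86% in Prss54KO testes, against 10.3%, 9.77% and 10.1% in WT testes. Its log2 difference was -0.15 (SE 0.08, 95% interval -0.35 to 0.05), with Prss54KO replicates 1 and 2 below all WT testes. The log2 of the dimmer over the brighter probe was -1.15 ± 0.04 in Prss54KO and -1.02 ± 0.04 in WT (SD, n = 3 each), lower in all 3 Prss54KO testes. Of 3 such contrasts, 1 per gene with more than 1 kept probe, this one had an exact permutation p of 0.1, unadjusted, the lowest possible. The probes overlap in sequence and still differed in their genotype difference by -0.13 on the log2 scale.

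Lama5, the alpha chain gene of most mature epithelial and vascular membranes, had scaled signals of 28.9%, 28.1% and 27.9% in Prss54KO testes, against 29.2%, 29.3% and 26.4% in WT testes. All Prss54KO values lay inside the WT range. The log2 difference was 0.00 (SE 0.06, 95% interval -0.15 to 0.15).

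Nidogens are the links between the laminin and the collagen network, and the pair can stand in for each other in mice. Nid1 had scaled signals of 158%, 137% and 131% in Prss54KO testes, against 169%, 149.9% and 165% in WT testes. Prss54KO replicates 2 and 3 lay below every WT testis, and Prss54KO replicate 1 lay between WT replicates 2 and 3. The log2 difference of Nid1 was -0.19 (SE 0.09, 95% interval -0.41 to 0.03), with an unadjusted p of 0.0835 and an adjusted p of 0.9999 by limma. For Nid2 the scaled signals were 89.8%, 85.0% and 92.2% in Prss54KO testes, against 84.7%, 84.3% and 88.1% in WT testes. The genotypes of Nid2 overlapped, with a log2 difference of 0.05 (SE 0.06, 95% interval -0.08 to 0.19).

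Hspg2 encodes perlecan, the large heparan sulphate proteoglycan that binds growth factors and anchors nidogen and collagen. Its scaled signals were 108.7%, 117.2% and 134% in Prss54KO testes, against 130.8%, 117.4% and 110.3% in WT testes. Both genotypes covered nearly the same range, and the log2 difference was 0.00 (SE 0.10, 95% interval -0.25 to 0.25).

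**Figure D2:**
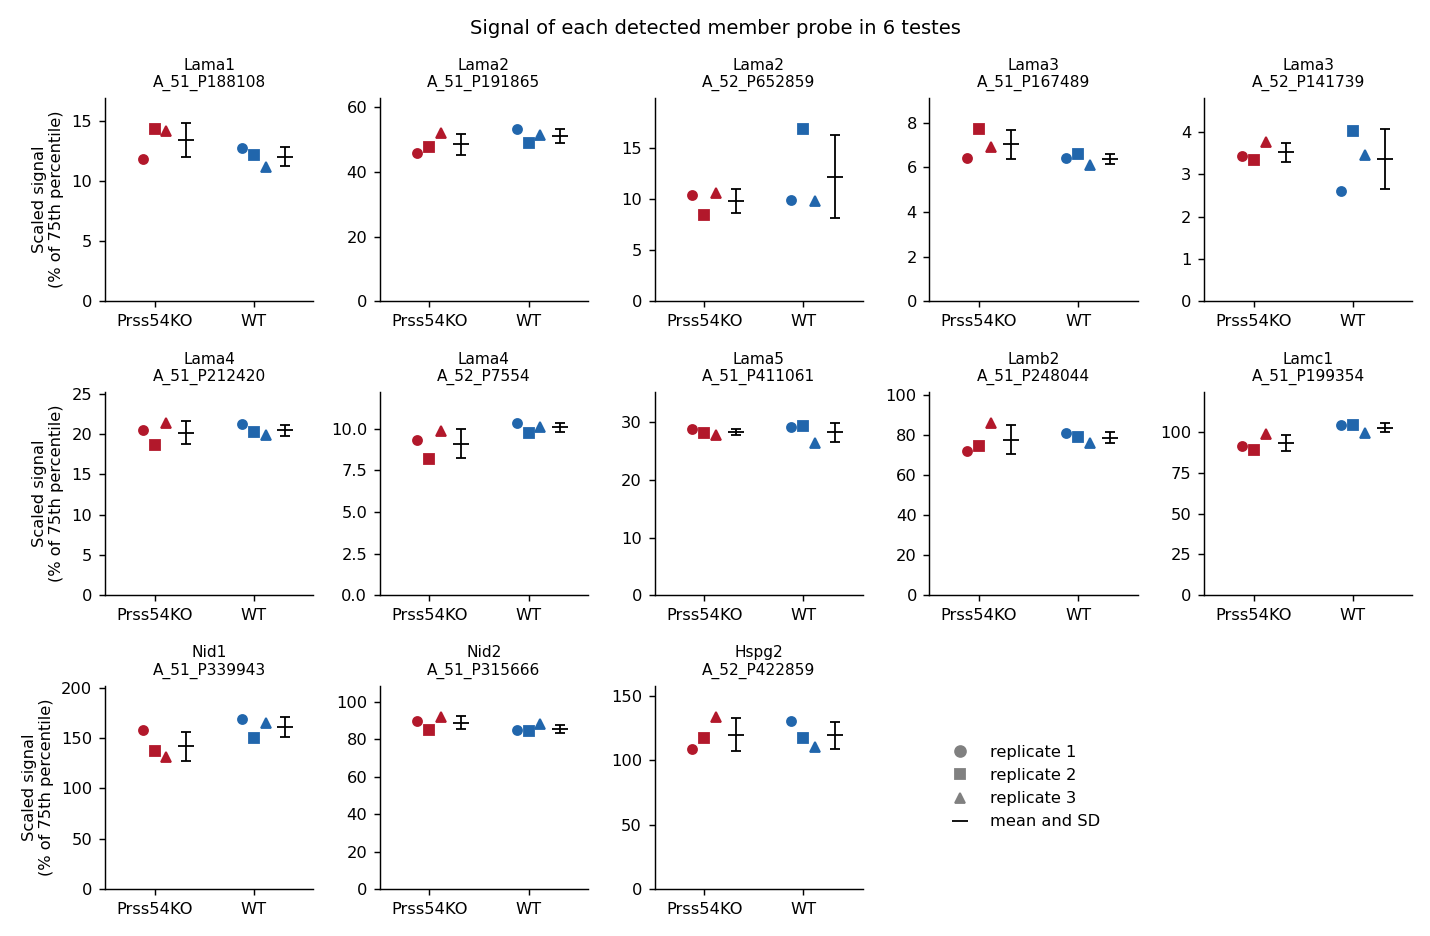
Scaled signal, in percent of the 75th percentile of each array, of the 13 kept probes in 3 Prss54KO testes (red, left) and 3 WT testes (blue, right), with the mean and SD of each genotype in black. The genotypes overlap for all but Lamc1, and WT replicate 2 stands apart for the Lama2 probe A_52_P652859.

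As a set, 7 of the 13 kept probes had a difference below 0 (53.8%) and 6 above, where 46.7% of all kept probes were below 0. The median difference of the 13 was -0.02, and that of all 28913 kept probes was 0.01. With limma 0 of the 13 passed an adjusted p of 0.05, as 0% of all kept probes did, and 0 had an unadjusted p under 0.05, where 3.2% of all kept probes did. Every one of the 13 intervals held 0, and 12 of them lay inside a 1.5-fold change in either direction. The exception was the dimmer Lama2 probe. SEs ran from 0.06 to 0.23 with a median of 0.08, the same to 2 decimals as that of all kept probes. The median absolute difference was larger in the 13 probes, at 0.09, than in all kept probes, at 0.06, which was not tested.

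**Figure D3:**
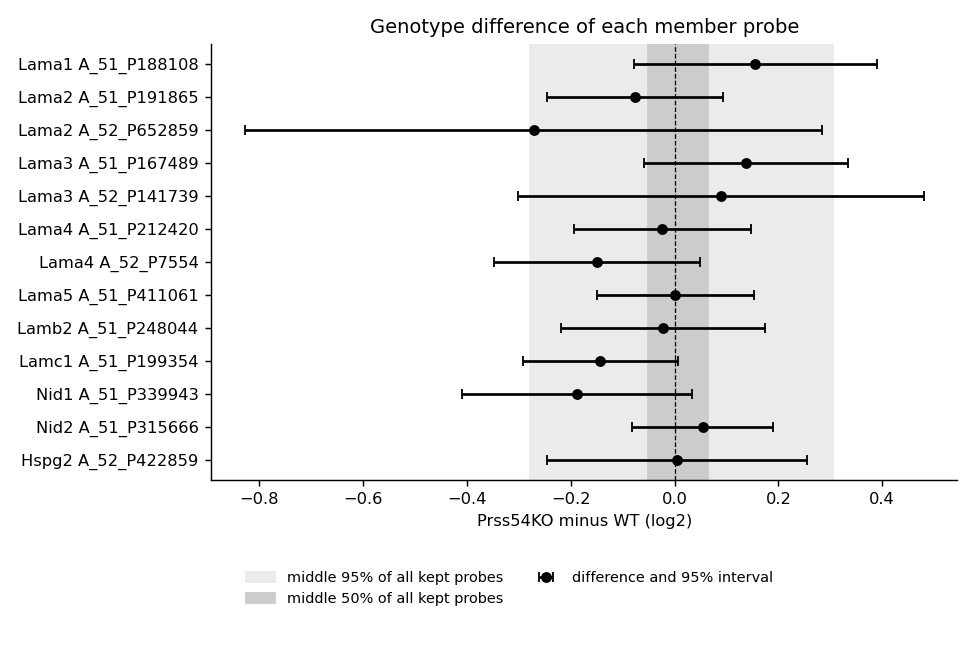
Prss54KO minus WT difference on the log2 scale of each kept member probe, with limma's 95% interval as a bar and the middle 50% and 95% of all kept probes shaded. All 13 intervals cross 0, and that of the Lama2 probe A_52_P652859 is the widest, from -0.83 to 0.28.

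By testis, the median of the 13 probes relative to the WT mean was -0.03, -0.07 and 0.07 in Prss54KO testes, and 0.04, 0.01 and -0.05 in WT testes. Prss54KO testes held both the lowest and the highest median. Prss54KO replicate 3, the testis alone on its slide, was above the WT mean for 8 of 13 probes, against 4 in Prss54KO replicate 1 and 3 in Prss54KO replicate 2. Leaving out this testis moved the median difference to -0.08, and leaving out Prss54KO replicate 2 moved it to 0.01, on the other side of 0. On slide 2 alone, with 2 Prss54KO testes and 1 WT testis, the median difference was -0.03.

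**Figure D4:**
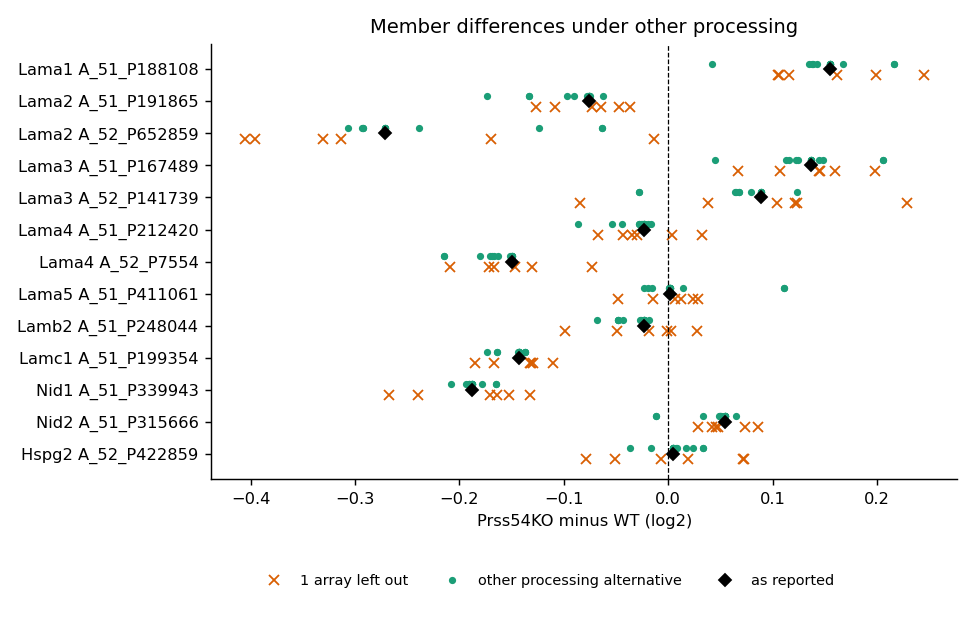
Prss54KO minus WT difference on the log2 scale of each kept member probe as reported (black), with 1 array left out (crosses) and under other processing (dots). Lamc1, Nid1, both Lama2 probes and the dimmer Lama4 probe stay below 0 and Lama1 and the brighter Lama3 probe above 0 in all of these, while the dimmer Lama2 probe runs from -0.41 to -0.01. For Lama2, Lama3 and Lama4, 1 dot at the brighter probe is the mean of the gene's kept probes.

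Other genes of the basement membrane were read from the same fit, in lists that hold 0 called probes in either direction. Of other laminin chain genes, the gamma chain gene Lamc3 had a log2 difference of 0.30 (SE 0.23) by its kept probe, with overlapping genotypes. That probe was dim, with scaled signals of 3.15% to 5.43% in Prss54KO and 2.83% to 3.99% in WT. The beta chain genes Lamb1, at 0.03 (SE 0.07), and Lamb3, at 0.05 (SE 0.11), had overlapping genotypes.

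Collagens of the basement membrane, the type IV chains with Col15a1 and Col18a1, had 14 kept probes, 12 of them below 0, with a median difference of -0.10. By the brightest probe of each gene, the lowest p-values belonged to Col18a1, the source of endostatin, at -0.19 (SE 0.08), and Col4a3 at -0.14 (SE 0.08). The probes of Col4a6 differed in sign, at 0.17 (SE 0.09) and -0.12 (SE 0.07). The other basement membrane components had 22 kept probes, 9 above 0 and 13 below, with a median of -0.01. Fbln5, an elastic fibre gene, stood at -0.24 (SE 0.07) and the laminin-binding netrin gene Ntn4 at 0.62 (SE 0.27). Ntn4 was dim, with scaled signals of 2.40% to 5.11% in Prss54KO and 2.01% to 2.38% in WT.

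Matrix receptors, the integrins, dystroglycan, syndecans and their partners, had 32 kept probes, 18 above 0 and 14 below, with a median of 0.01. This list, labelled laminin receptors, was not limited to integrins that bind laminin. An unadjusted p under 0.05 was found for 3 of the 32, where 3.2% of all kept probes had one: both probes of Itga8, below 0, and 1 of the probes of Itgb4, above 0. By its brightest probe Itga8, an integrin alpha chain, stood at -0.25 (SE 0.09). The other Itga8 probe stood at -0.19 (SE 0.06). Itgb4, an integrin beta chain named after its values were seen, stood at 0.13 (SE 0.05) by that probe and 0.02 (SE 0.06) by the other. After Itga8, the lowest p-value by brightest probe was that of Cd151, a tetraspanin that pairs with laminin-binding integrins, at 0.09 (SE 0.07). Genes that assemble heparan sulphate, the sugar of perlecan, had a median of -0.01 over 24 probes, 11 above 0 and 13 below, with the sulphatase gene Sulf2 at -0.11 (SE 0.06) and B3gat3 at 0.12 (SE 0.06) by their brightest probes. Other B3gat3 probes stood at 0.14 (SE 0.06) and -0.09 (SE 0.06). Matrix proteases and inhibitors had a median of -0.04 over 12 probes, 4 above 0 and 8 below. Among them the inhibitor gene Timp3 stood at -0.14 (SE 0.06) and the heparanase gene Hpse, which cuts heparan sulphate, at 0.66 (SE 0.29). Hpse was dim, with scaled signals of 3.72% to 6.24% in Prss54KO and 2.13% to 4.17% in WT, and its genotypes overlapped. For the genes named from these lists limma's adjusted p was 0.9999.

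**Figure D5:**
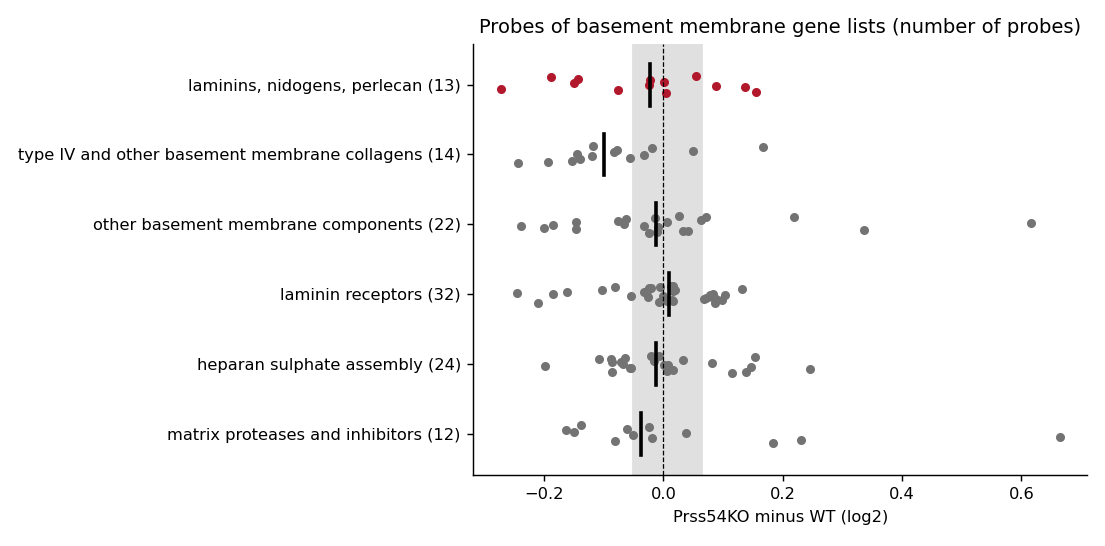
Prss54KO minus WT difference on the log2 scale of each kept probe in the laminin, nidogen and perlecan genes (red) and in 5 other basement membrane lists (grey), with the median of each list as a bar and the middle 50% of all kept probes shaded. The medians run from -0.10 for the basement membrane collagens to 0.01 for the list labelled laminin receptors.

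In a whole testis, fewer cells of a type and less RNA per cell cannot be told apart, so markers of the cells that make or border these membranes are given beside the members. Summed scaled signals of 12 Sertoli markers, each by its brightest kept probe, ran from 8977% to 9408% in Prss54KO and from 8855% to 9256% in WT. For 8 peritubular myoid markers they ran from 2256% to 2477% in Prss54KO and from 2288% to 2518% in WT. The 10 endothelial markers above background ran from 502% to 554% in Prss54KO and from 526% to 536% in WT. Pecam1 was not kept. In these lists the ranges of the genotypes overlapped. Germ cell sums ran from 87250% to 91914% in Prss54KO and from 86060% to 89966% in WT, Leydig sums from 3283% to 3312% in Prss54KO and from 3197% to 3738% in WT. Macrophage sums ran from 6609% to 7589% in Prss54KO and from 6700.5% to 7965% in WT.

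All 7 fibroblast markers had a difference below 0 by their brightest probe, with sums of 2053% to 2967% in Prss54KO and 2865% to 3688% in WT. Of all 11 kept fibroblast probes 9 were below 0, with a median of -0.30, and of 13 kept peritubular probes, which include Itga8 of the receptor list, 11 were below 0, with a median of -0.04. An unadjusted p under 0.05 by limma was found for 3 of the 11 fibroblast probes and 2 of the 13 peritubular probes, both of Itga8. Of all kept probes 3.2% had one. The genotypes did not overlap for 4 of the 11 and 3 of the 13, where 7.81% of all kept probes did not overlap. The part of fibroblast and peritubular cells in the lower mean signals of Lamc1 and Nid1 was not tested. Of markers of tissue beside the testis, 5 of 7 epididymis markers were above background, with sums of 40.4% to 46.8% in Prss54KO and 35.4% to 42.3% in WT. So were 4 of 6 adipocyte markers, with sums of 267% to 326% in Prss54KO and 207% to 313% in WT. By probe, 5 of 6 kept adipocyte probes were below 0, with a median of -0.27, and all 5 kept epididymis probes were above 0, with a median of 0.12. Of the kept Leydig probes 8 of 10 were below 0, with a median of -0.08.

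By likeness of pattern, the probes with the highest Pearson r over the 6 arrays to the mean of the centred member probes were those of Duox2, Syne3, Epha5, Timp1 and Prkacb, at r of 0.981 to 0.986 among 15222 probes compared. These values describe 6 arrays, were picked as the highest of all compared, and carry no p. The member mean was highest in WT replicate 2, at 0.07, where the dimmer Lama2 probe stood 0.52 above the WT mean. By the median of the 13 probes that testis stood at only 0.01 relative to the WT mean. In that testis the pattern matched thus leans in part on 1 probe. Other testes shaped the pattern too, with a member mean of -0.06 in Prss54KO replicate 2 and 0.05 in Prss54KO replicate 3. Likeness without the dimmer Lama2 probe was not tested.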

How the data were processed

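Testis RNA of 3 Prss54KO and 3 WT mice was measured on 1 array each. The deposited scanner files hold spot intensity on a linear scale, written by Agilent Feature Extraction 10.7.3.1, with spatial and multiplicative detrending switched on, per the file headers (version 10.7 per the submitters' processing notes). The deposited series table holds log2 values with the same quantiles in every column (median 7.72), as quantile normalization gives, its method not being given in the sources used here, and was used as an alternative only.

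From the processed intensity, log2 was taken, the array's 75th percentile subtracted and unflagged spots of a probe averaged. A probe was kept if well above background on 3 or more arrays, and kept probes were compared with limma 3.58.1 in R 4.3.3 (lmFit, eBayes, two-sided, Benjamini-Hochberg over 28913 probes, threshold 0.05). Single values also had an exact permutation test in scipy 1.17.1. The fit was tested on simulated data. The number of arrays limits the precision.

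The members and lists were chosen with earlier results of these data known. Named are all members, Prss54, the 2 genes of smallest p in each list by their brightest probe and the 5 probes most alike in pattern among those with an SD of at least 0.1. Lamb1, Lamb3, Itgb4 and Col4a6 were added after their values were seen. A result of the list of other laminin chains is not reported here. The alternatives were other scaling, background correction, filters and probe summaries, the deposited table, slide and replicate blocks, array weights, a variance trend and leaving out each array.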

Additional observations from a re-analysis of the deposited data

How the results depend on the processing

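In all 20 alternatives 0 member probes passed an adjusted p of 0.05 with limma. Over all probes the count of 0 was 1 with normexp, with the filter on all 6 arrays and with the slide as a fixed block, and 2 with the intensity trend. At an unadjusted p under 0.05 the count of 926 probes was 1672 without a filter, 1393 with array weights and 578 to 1803 with 1 array left out (578 without WT replicate 1, 1803 without WT replicate 3). For members that count of 0 was 1 with median scaling, array weights and the intensity trend (Lamc1) and with no filter (the dim Lama4 probe A_52_P78714), and 0 to 2 with 1 array left out, reaching 2 without Prss54KO replicate 1 (Lama1 at 0.24, Nid1 at -0.27) and without Prss54KO replicate 3 (Lamc1 at -0.19, Lama4 A_52_P7554 at -0.21). With the replicate block the count of all probes at an unadjusted p under 0.05 was 1129 and the median difference of members -0.02; the block changed no call. Same-numbered mice deviated with correlations of -0.04, 0.02 and -0.15, and not every sample correlated best with its own number. The highest correlation, 0.16, was that of Prss54KO replicate 1 with WT replicate 3, which shared slide 2. Prss54KO replicate 2 with WT replicate 3, on slide 2 as well, had -0.005. Prss54KO replicate 3 with WT replicate 2, on different slides, had 0.13. With 3 arrays per genotype and shared slides, these values cannot decide whether mice were paired. The labels give only a replicate number.

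Of 254 member differences under alternatives, 235 kept their direction and 19, of 6 probes, turned it. Some of the 235 could not turn. Other filters, the brightest-probe choice, the replicate block and the variance trend left the differences themselves unchanged. So did the mean of the probes for genes with 1 kept probe. The slide as a fixed block gave the same differences as slide 2 alone. Hspg2 was -0.0164 with median scaling, -0.0362 with array weights and -0.0785 to 0.0730 with 1 array left out. Lama5 was -0.0193 with median scaling, -0.0229 with normexp, -0.0158 with array weights, and -0.0476 to 0.0283 with 1 array left out. The dimmer Lama3 probe was -0.0275 with the slide as a fixed block and on slide 2 alone, and -0.0847 to 0.229 with 1 array left out. Nid2 was -0.0115 with the slide as a fixed block and on slide 2 alone. With 1 array left out, the brighter Lama4 probe ran from -0.0676 to 0.0322 and Lamb2 from -0.0993 to 0.0275. Signal over background limits the 3 dim probes, and 3 mice per genotype limit the rest.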
